A study of Mus musculus with 4 samples.

Results

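The genes described here are 9 genes of histone H3K4 methylation, Setd1a, Setd1b, Ash2l, Wdr5, Rbbp5, Cxxc1, Kdm1a, Kdm5a and Kdm5b, which were chosen by their function in H3K4 methylation, with earlier results of these data known. No measured value enters the rule that lists them. They are 9 of the 22367 annotated protein-coding genes on the 21 chromosomes of the peak lists, and all 9 were found in the GENCODE annotation of mm9. H3K36me3 ChIP-seq was performed on germ cells, labelled spermatocytes, of 2 mouse strains at 14 dpp. C57BL/6J, or B6, carries its own Prdm9 allele. The strain labelled B6.Cg-Prdm9<tm1.1Kpgn>/Kpgn, or KI, differs from B6 in the last exon of Prdm9, which encodes the zinc fingers and was replaced with that of CAST/EiJ mice. The reads of 2 biological replicates were merged in each strain before peaks were called against 1 input per strain, which the labels place at 15 dpp. Each strain therefore has 1 list, no value has a replicate error and no test between strains was possible. The lists give positions without counts or heights, so the depth behind a peak is unknown, and the methods describe the merged KI data as the deeper of the pair. The titles name H3K36me3 as the target, while the antibody field of the labels reads H3K36me6.

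Trimethylation of H3K4 marks the start sites of genes, above all those rich in CpG, and is placed by complexes built around a SET-domain enzyme. Trimethylation of H3K36 is placed by SETD2, which travels with elongating RNA polymerase II, so that it lies over the body of transcribed genes and leaves their start free. In spermatocytes PRDM9 places both marks at recombination hotspots. The genes below encode enzymes that write or erase H3K4 methylation and subunits or partners of their complexes. What was measured is the H3K36me3 over the genes themselves, not the methylation of H3K4.

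In both strains, the bodies of all 9 genes lay mostly in broad H3K36me3 regions and the 5′ ends of all 9 lay outside them. An uncovered 5′ end was also found in 87% of the protein-coding genes covered to at least 50% in both strains, so it is general among such genes. The median share of the gene span in broad regions was 96.1% (B6) and 95.9% (KI), and the lowest was 63.4% in both, at Setd1b. All 9 genes were covered to at least 50% in both strains, and 7 of 9 to at least 90%. Among all protein-coding genes, 43% were covered to at least 50% in B6 and 41.2% in KI, 39.9% in both strains, and 22.4% were covered to at least 90% in both. Among the 13228 protein-coding genes within the length range of the 9 genes (5361 to 80476 bp), these shares were 50.3% and 29.7%. Broad regions were called in steps of 500 bp, so all edges given below carry that coarseness.

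**Figure D1:**
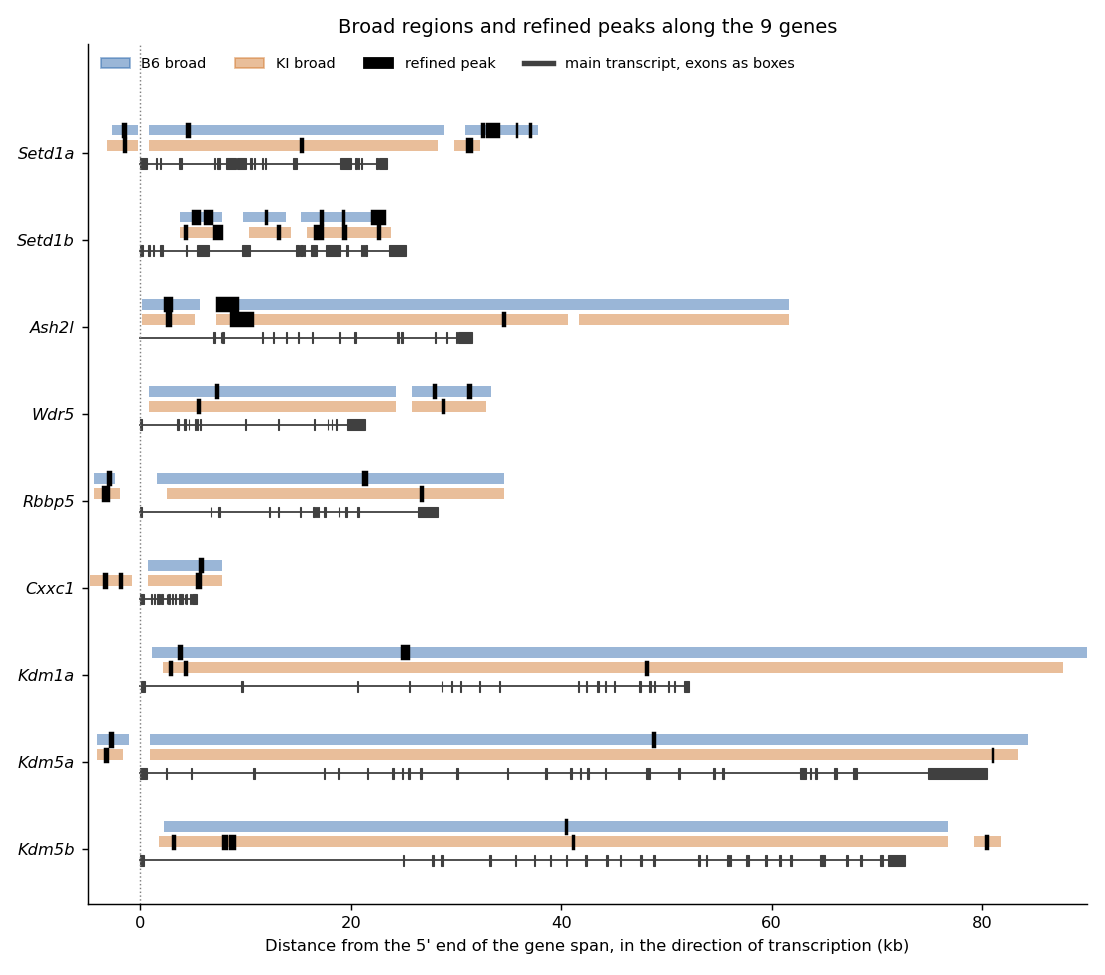
Broad regions (B6 in blue, KI in orange) and refined peaks (black, with a thin outline that widens the narrowest) along the 9 genes, plotted by distance in kb from the 5′ end of each gene span, with the exons of the transcript with the longest coding sequence below. In 7 genes a single broad region per strain runs from near the start past the 3′ end, Ash2l has a break at 5.2 to 7.2 kb, and Setd1b has 3 short pieces.

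SETD1A and SETD1B are the catalytic subunits of the SET1 complexes, which place much of the H3K4me3 at active promoters. Their genes differed in pattern. Setd1a (ENSMUSG00000042308.8; chromosome 7 of mm9, 134920184 to 134943636, forward strand) had 96.5% of its span covered in each strain. A single broad region began 817 bp inside the gene, in intron 1, in both strains, and ran 5364 bp past the 3′ end in B6 and 4864 bp in KI. Upstream lay a broad region of 2500 bp in B6 and 3000 bp in KI, over the 3′ end of the neighbouring gene Orai3. This region ended 183 bp before the 5′ end of Setd1a, so that the uncovered stretch at the start of Setd1a was 1000 bp wide in both strains. The annotated gene Hsd3b7 starts 8938 bp inside Setd1a on the same strand and overlaps its 3′ part, where a broad region cannot be assigned to either gene.

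Setd1b (ENSMUSG00000038384.10; chromosome 5, 123592202 to 123617444, forward strand) was covered to 63.4% in each strain. Its cover was broken into 3 pieces of 4000, 4000 and 8000 bp in B6 and likewise 4000, 4000 and 8000 bp in KI, whereas 7 of the other 8 genes had 1 region each. The first piece began 3799 bp inside the gene, in intron 4, in both strains. Where only regions of at least 5000 bp were kept, the share fell to 31.7% in both strains, below the limit of 50%, and the uncovered 5′ part grew to 15299 bp in B6 and 15799 bp in KI. The breaks between the pieces were 2000 and 1500 bp wide in B6 and 2500 and 1500 bp in KI. The last piece ended 1944 bp before the 3′ end in B6 and 1444 bp before it in KI, and Setd1b was the one gene of the 9 whose 3′ end lay outside broad regions. No broad region lay within 5 kb upstream, where the antisense transcript AI480526 starts at 527 bp, and the antisense lincRNA Gm17627 spans the whole gene.

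ASH2L, WDR5 and RBBP5 form the core that SET1 and MLL enzymes share and need for their activity. Wdr5 (ENSMUSG00000026917.9; chromosome 2, 27370677 to 27392055, forward strand) was covered to 96.1% in both strains by a broad region of 23500 bp that had the same start, 824 bp inside the gene in intron 1, and the same end, 2945 bp past the gene, in both lists. The share at Rbbp5 (ENSMUSG00000026439.8; chromosome 1, 134373944 to 134402242, forward strand) was 94.5% in B6 but 91.0% in KI. Its region began 1557 bp inside the gene in B6 and 2557 bp inside in KI, both in intron 1, and ended at the same base, 6258 bp past the gene. Each strain also had a region upstream of Rbbp5, of 2000 bp in B6 and 2500 bp in KI, within the divergent lincRNA gene 6030442K20Rik, which starts 322 bp from Rbbp5. The refined peaks in these upstream regions, of 381 bp in B6 and 627 bp in KI, overlapped.

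Ash2l (ENSMUSG00000031575.10; chromosome 8, 26926663 to 26958166, reverse strand) had 94.7% of its span covered in B6, and 93.1% in KI. Its uncovered stretch at the 5′ end of the gene span was 166 bp in both strains, the shortest of the 9. A second uncovered stretch lay inside the span, from 5666 to 7165 bp in B6, a break of 1500 bp, and a break of 2000 bp in KI. The outer 5′ end belongs to a single annotated transcript. The transcript with the longest coding sequence starts 6915 bp inside the span, and 3 further transcripts start between 6925 and 6932 bp, all within the break in both strains. Measured from that inner start, the broad region began after 251 bp and covered 99.0% of the transcript in both strains. Downstream, the region ran 30.2 kb past the 3′ end of Ash2l in B6, over the neighbouring gene Star. In KI it also covered Star but ended 9.2 kb past Ash2l. After a break of 1000 bp, a further KI region of 20000 bp reached the base where the B6 region ended.

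CXXC1 is the subunit of SET1 complexes that binds unmethylated CpG and brings them to CpG-rich promoters. Cxxc1 (ENSMUSG00000024560.6; chromosome 18, 74375785 to 74381145, forward strand), the shortest of the 9 genes, was covered to 86.6% in both strains by a region of 7000 bp with identical edges, from 716 bp inside the gene, in intron 1, to 2355 bp past it. The strains differed upstream. KI had a broad region of 4000 bp (74371001 to 74375000) that ended 784 bp before the gene and held refined peaks of 319 and 314 bp. In B6 no broad region and no refined peak met it, and no annotated gene lies there.

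KDM1A (LSD1) removes mono- and dimethylation of H3K4, and KDM5A and KDM5B remove tri- and dimethylation. Their genes are the longest of the 9 and had the widest regions. Kdm1a (ENSMUSG00000036940.9; chromosome 4, 136106455 to 136158638, reverse strand) had 97.8% of its span covered in B6, and 95.9% in KI. Its region began 1138 bp inside the gene in B6 and 2138 bp inside in KI, both in intron 1. It spanned 130000 bp in B6, where it ranked 206th by width among the 39620 merged regions, and 85500 bp in KI, where it ranked 386th among 48863. In both strains it ran on past the 3′ end into the convergent gene Luzp1, which overlaps the end of Kdm1a, for 79.0 kb in B6 and 35.5 kb in KI. After a break of 1000 bp, a further KI region of 32500 bp reached 69.0 kb past the gene.

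Kdm5a (ENSMUSG00000030180.9; chromosome 6, 120314117 to 120394592, forward strand) had the highest share, 98.9% in both strains. Its region began 884 bp inside the gene, in intron 1, in both. The divergent gene Ccdc77 starts 275 bp inside Kdm5a, and its own body carried a region that ended 1116 bp before Kdm5a in B6 and 1616 bp before it in KI. Kdm5b (ENSMUSG00000042207.10; chromosome 1, 136456748 to 136529454, forward strand) had 96.9% of its span covered in B6, and 97.6% in KI. Its region began 2253 bp inside the gene in B6 and 1753 bp inside in KI, in intron 1, and ended at the same base, 4046 bp past the gene. Kdm5b was the one gene of the 9 with the larger share in KI.

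**Figure D2:**
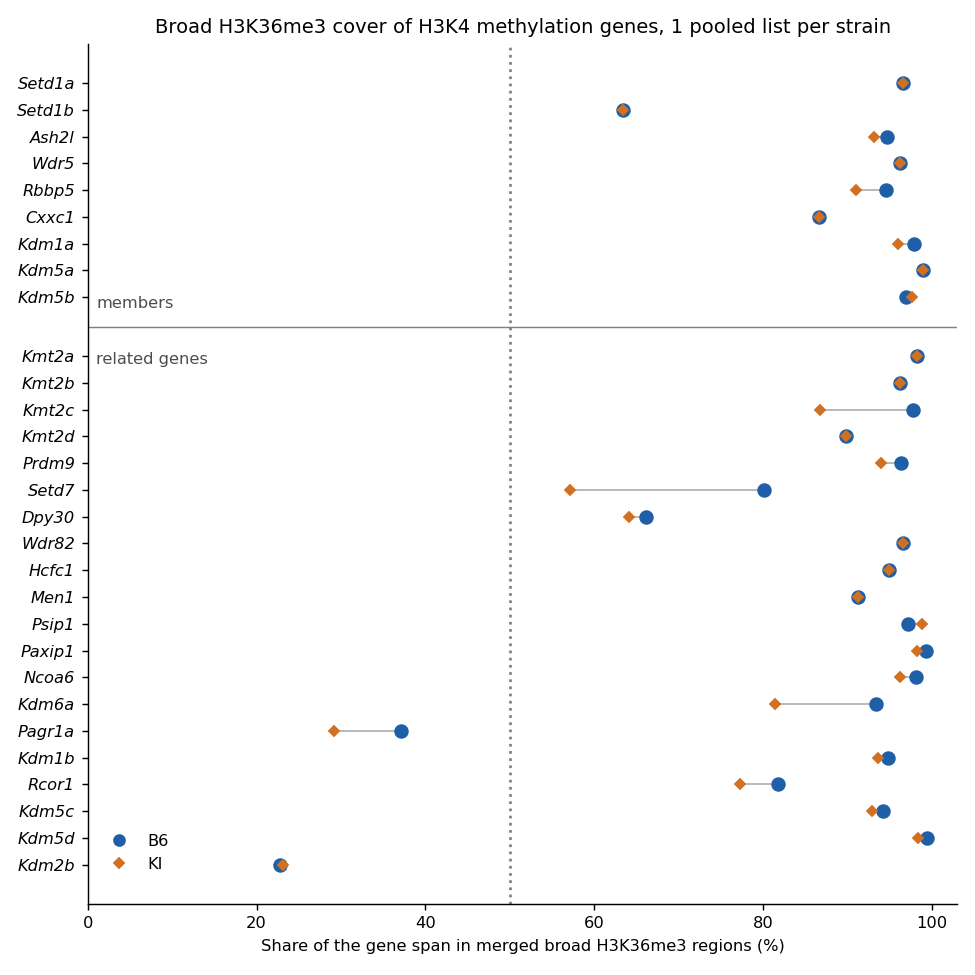
Share of each gene span in merged broad regions, in percent, in B6 (blue circles) and KI (orange diamonds), for the 9 genes (above the line) and 20 related genes (below it), with a dotted line at 50%. For 5 of the 9 genes both strains gave the same share, Setd1b stands at 63.4%, and the widest strain difference among the 9 is 3.53 percentage points, at Rbbp5.

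Between the strains, the shares were equal in 5 of the 9 genes, higher in B6 in 3 and higher in KI in 1. Among the 8919 protein-coding genes covered to at least 50% in both strains, below called marked genes, 40.8% had equal shares, 44.4% were higher in B6 and 14.9% higher in KI. The differences in the 9 genes were 3.53 percentage points at Rbbp5, 1.92 at Kdm1a, 1.59 at Ash2l and, in the other direction, -0.69 at Kdm5b. With 1 list per strain, none of these can be set against replicate error. The cell content of the lists was checked with markers. All 12 genes of germ cells and meiosis were covered to at least 50% in both strains, with a lowest share of 82.4% in B6 and 77.4% in KI. Of 6 Sertoli cell genes, 5 were in the annotation, and their shares ran from 19.6% to 71.7% in B6, while those in KI ran from 0% to 8.49%, and 5 of 5 were higher in B6. Of 5 Leydig cell genes, Star was covered to 100% in both strains, inside the region that continues from Ash2l, and the other 4 to at most 1.51%. None of 6 genes of other tissues was covered to more than 25.1% in either strain. The part of the Sertoli signal in the strain differences of the 9 genes was not tested.

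**Figure D3:**
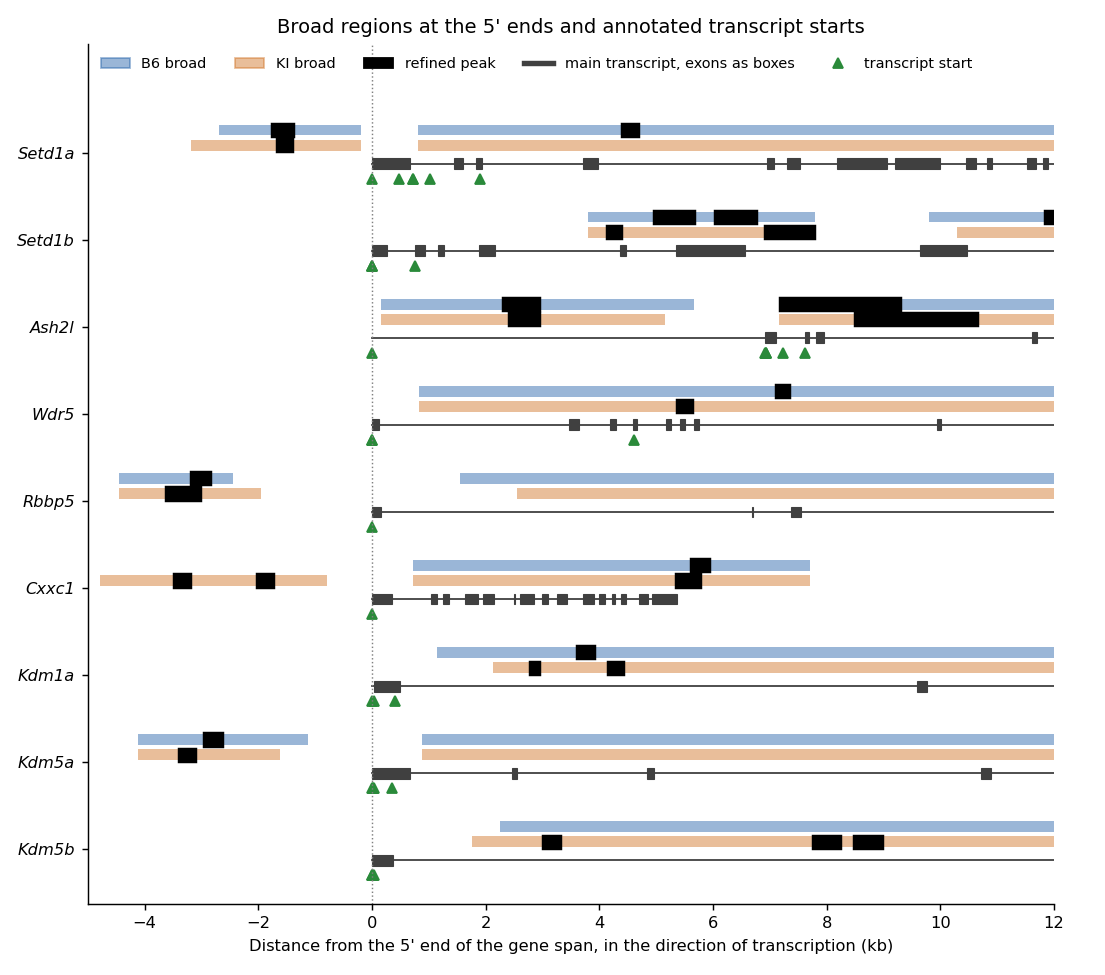
The same tracks from 5 kb before to 12 kb after the 5′ end of each gene span, with green triangles at annotated transcript starts. Starts at the 5′ end fall in the uncovered stretch in all 9 genes, and at Ash2l the inner starts at 6.9 kb fall in the break between the pieces.

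Inside the gene, the uncovered stretch measured 884 bp in the median in each strain and ranged from 166 bp at Ash2l to 3799 bp at Setd1b. In 6 of the 9 genes the B6 width lay between 716 and 1557 bp. The marked genes whose 5′ end was likewise uncovered in both strains, 7763 of the 8919, had a median of 1032 bp in B6 and 1130 bp in KI. Their interquartile ranges were 623 to 1807 bp in B6 and, in KI, 649 to 2066.5 bp. Setd1b lay above the 90th percentile of these genes in B6, 3321.6 bp, and below it in KI, 4068 bp. The first covered base was the same in both strains in 6 of the 9 genes, Setd1a, Setd1b, Ash2l, Wdr5, Cxxc1 and Kdm5a, against 49.4% of the marked genes with an uncovered 5′ end. At Rbbp5 and Kdm1a the KI region began 1000 bp later, and at Kdm5b it began 500 bp earlier. In 7 of the 9 genes it lay in intron 1 of the main transcript. The 3′ end was covered in 8 of the 9 genes in both strains, and in 92.2% of the marked genes. Of 51 annotated transcript starts in the 9 genes, 29 lay outside broad regions in both strains and 22 inside in both. Several of these starts lie at or near another start of the same gene, and no such share was taken for marked genes. The start inside a broad region that lay closest to the 5′ end of its gene was 1025 bp from it.

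**Figure D4:**
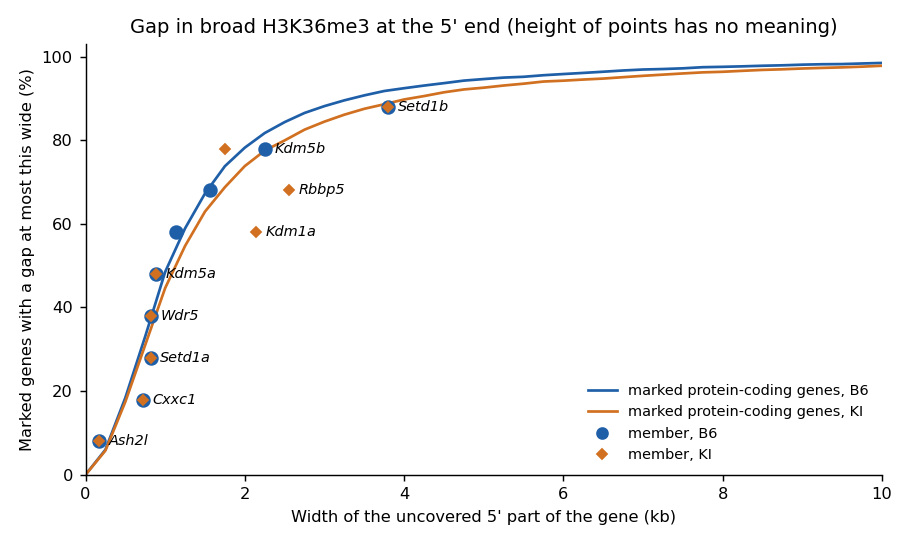
Width in kb of the uncovered 5′ part of each of the 9 genes in B6 (blue circles) and KI (orange diamonds), over the cumulative share, in percent, of 7763 marked protein-coding genes with a gap at most this wide (lines). The 9 genes range from 166 to 3799 bp, and 3 of them, Rbbp5, Kdm1a and Kdm5b, differ between strains.

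Most of the uncovered starts were rich in CpG, the dinucleotide that CXXC1 binds, as were those of marked genes in general. In the first 250 bp of the gene the 9 genes averaged 10.4 CpG per 100 bp and marked genes of at least 10 kb 9.46, and in the 250 bp before it 6.40 and 7.20. In the 1000 bp around the 5′ end, 8 of the 9 genes had from 52 to 102 CpG, against a median of 40 (interquartile range 12 to 69) over 22355 protein-coding genes. Kdm1a with 102 and Setd1b with 101 had the most, numbers reached by 6.63% and 6.94% of the genes. Setd1a with 62 and Rbbp5 with 52 lay within the interquartile range and were equalled or exceeded by 31.8% and 41.3% of the genes. Ash2l had 23 at its outer 5′ end, reached by 62.3%, but 80 in the 1000 bp around the start of its main transcript, inside the break. Over the part of each gene covered in both strains there were 0.634 to 3.29 CpG per 100 bp, with a median of 0.885. Over the uncovered part at the 5′ end there were 2.70 to 9.79, with a median of 8.74. The breaks inside Setd1b were less rich than its start, with 1.95 and 3.20 CpG per 100 bp against 4.45, and the covered part of that gene had 2.13. These are counts in the reference sequence, and methylation of the CpG was not measured.

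Sequences from the mm9 reference follow, 5′ to 3′ on the strand of the gene, with each CG in capitals. They lie before annotated starts and are not the covered and uncovered parts compared above. At Setd1a the upstream broad region, which ended 183 bp before the 5′ end in both strains, covers the first bases of the window. The first set is the 250 bases before the 5′ ends of a writer with a short gap, the writer with the longest gap, the eraser with the widest region and the outer and inner starts of Ash2l. They hold 19 CG at Setd1a (chr7:134919934-134920183), 15 at Setd1b (chr5:123591952-123592201), 21 at Kdm1a (chr4:136158639-136158888), 5 at the outer start of Ash2l (chr8:26958167-26958416) and 13 at its inner start (chr8:26951252-26951501). Of all protein-coding genes, 92.5% have a CG in this window, searched as the letters CG, which read the same on both strands, and the median number is 8.
Setd1a: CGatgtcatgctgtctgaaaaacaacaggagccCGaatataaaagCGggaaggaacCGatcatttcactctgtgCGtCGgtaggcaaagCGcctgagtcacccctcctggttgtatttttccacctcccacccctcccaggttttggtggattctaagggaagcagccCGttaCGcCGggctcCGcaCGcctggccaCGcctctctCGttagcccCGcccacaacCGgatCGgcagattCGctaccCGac
Setd1b: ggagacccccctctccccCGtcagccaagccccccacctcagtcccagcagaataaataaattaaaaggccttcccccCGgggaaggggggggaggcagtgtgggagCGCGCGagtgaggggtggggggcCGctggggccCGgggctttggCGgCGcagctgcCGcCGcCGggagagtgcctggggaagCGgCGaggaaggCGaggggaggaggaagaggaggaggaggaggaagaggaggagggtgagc
Kdm1a: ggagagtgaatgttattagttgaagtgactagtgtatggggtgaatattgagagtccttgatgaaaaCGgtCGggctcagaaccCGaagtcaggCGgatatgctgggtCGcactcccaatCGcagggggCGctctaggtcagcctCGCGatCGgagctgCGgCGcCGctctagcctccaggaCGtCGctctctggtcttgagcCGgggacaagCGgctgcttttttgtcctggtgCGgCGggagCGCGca
Ash2l outer start: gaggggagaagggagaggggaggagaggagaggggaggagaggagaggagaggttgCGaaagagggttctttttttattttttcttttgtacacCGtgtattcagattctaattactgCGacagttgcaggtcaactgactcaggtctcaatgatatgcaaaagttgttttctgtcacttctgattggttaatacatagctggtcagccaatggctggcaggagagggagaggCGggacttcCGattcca
Ash2l inner start: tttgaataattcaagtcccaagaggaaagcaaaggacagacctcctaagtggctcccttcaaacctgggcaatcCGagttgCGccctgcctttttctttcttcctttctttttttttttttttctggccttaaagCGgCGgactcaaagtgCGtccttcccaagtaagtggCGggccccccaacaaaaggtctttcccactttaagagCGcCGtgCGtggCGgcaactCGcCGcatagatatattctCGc

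**Figure D5:**
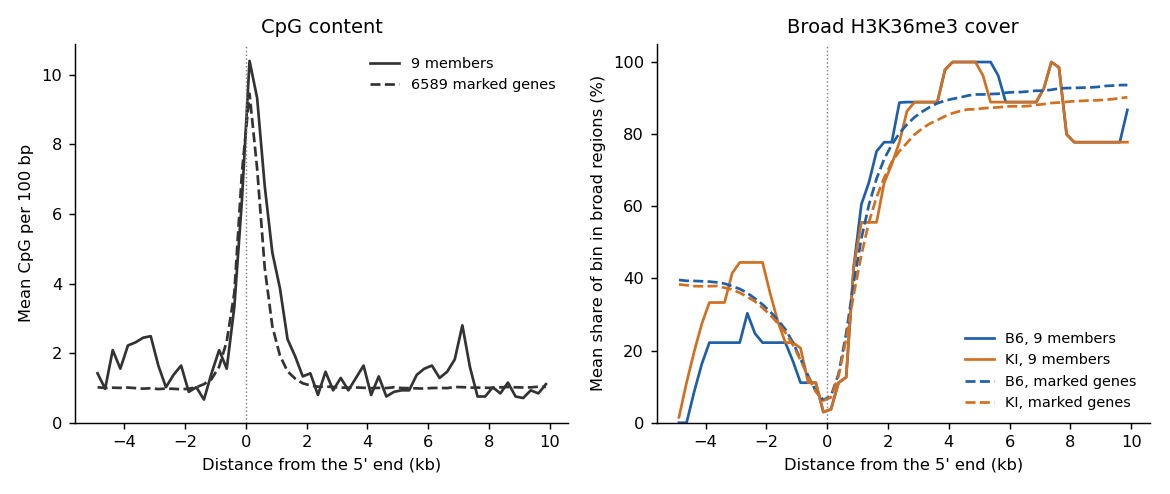
Mean CpG per 100 bp (left) and mean share in percent of each 250 bp bin in broad regions (right) by distance in kb from the 5′ end, for the 9 genes (solid) and 6589 marked protein-coding genes of at least 10 kb (dashed), with B6 in blue and KI in orange. At the 9 genes, CpG content peaks at 10.4 in the first 250 bp of the gene, where 3.73% of the bin is covered in each strain, and marked genes show a like pattern, with 9.46 CpG and 7.46% (B6) and 7.03% (KI) covered in that bin.

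Refined peaks, the narrow calls within broad regions, numbered 15 in B6 and 19 in KI over the 340.6 kb of the 9 genes. This is 44.0 per Mb in B6 and 55.8 in KI, while the marked genes had 67.0 and 98.2. The whole lists held 58502 refined peaks and 54458 broad regions before merging in B6, and 72692 and 66566 in KI. Peak numbers thus ran close to the number of called broad regions, and the densities were not set against that number. In each strain 8 of the 9 genes had at least 1 refined peak, whereas 87.3% of the marked genes had one in B6 and 88.6% in KI. Their midpoints lay in introns of the main transcript in 13 of 15 cases in B6 and 15 of 19 in KI. The same share was not taken for refined peaks of marked genes, so these counts only describe positions. No refined peak of the 9 genes had its midpoint closer than 2626 bp to the outer 5′ end of the gene span in B6 or 2676 bp in KI. From the inner start of Ash2l, however, the nearest B6 peak had its midpoint at 1326 bp and its edge at 251 bp. Median widths were 341 bp in B6 and 327 bp in KI. All 15 B6 peaks and all 19 KI peaks lay in a broad region of the other strain, as did, among refined peaks in marked genes, 84.1% (B6) and 95.8% (KI).

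Overlap with a refined peak of the other strain was found for 5 of the 15 peaks in B6 and 6 of the 19 in KI, while the share among refined peaks in marked genes was 23.2% (B6) and 15.8% (KI). The overlapping pairs lay at 3 genes. Setd1b had 6 refined peaks in each strain, a number reached in both strains by 8.9% of the marked genes. Before merging, its 3 pieces of broad cover were 2, 1 and 3 called regions in B6 and 2, 1 and 2 in KI. They held 2, 1 and 3 refined peaks in each strain, so the peak count is not separate from the broken cover. Of the 6 peaks, 3 overlapped, at introns 11, 12 and 16. The other 3 lay 112, 544 and 935 bp from the nearest peak of the other strain. Ash2l had 2 in each strain, and both pairs overlapped. The outer pair, 676 bp in B6 and 551 bp in KI, had its midpoints 2626 bp (B6) and 2676 bp (KI) from the outer 5′ end, between the annotated starts, and the KI peak lay wholly within the B6 peak. The inner pair, 2150 bp in B6 and 2191 bp in KI, were the widest of the 9 genes and shared 842 bp. At Cxxc1, the KI peak of 458 bp crossed the 3′ end of the gene and shared 201 bp with a B6 peak of 358 bp that began just past it, so B6 had 0 refined peaks within Cxxc1 itself. An overlapping pair with its B6 peak in the span was found in 33.6% of the marked genes. Counted so, Setd1b and Ash2l had such a pair and Cxxc1 did not.

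At the other 6 genes 0 refined peaks overlapped between strains. Setd1a had 1 in each strain, in intron 4 in B6 and intron 13 in KI. Wdr5 had 1 in each, in intron 7 and exon 6, which lay 1442 bp apart. Rbbp5 had 1 in each, in intron 13 and in exon 14, its last. Kdm1a had 2 in B6 and 3 in KI, of which 1 in B6 and 2 in KI lay in intron 1, the nearest pair 208 bp apart. Kdm5a had 1 in B6, in intron 19, and 0 in KI, where the single refined peak of its broad region lay 425 bp past the gene. Kdm5b had 1 in B6, in intron 8, and 4 in KI. Of these 4, 3 lay in intron 1, and 1 in intron 9 lay 481 bp from the B6 peak. The lists hold no heights, so these peaks cannot be ranked by strength, and the positions of hotspots were not used here.

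Refined peaks that touch no annotated exon are printed from shared pairs at Setd1b and Ash2l and from Kdm5b, where KI had 4 and B6 had 1. At Setd1b the B6 peak in intron 12 (chr5:123611333-123611579) shared 190 bp with a KI peak and holds 2 CG. At Ash2l the middle 300 bases of the KI peak between the starts (chr8:26955341-26955640), which lie wholly within the B6 peak, hold 3. At Kdm5b the KI peak in intron 9 (chr1:136497788-136497992), which lay 481 bp from the B6 peak, holds 2. The KI peaks in intron 1 of Kdm5b are not printed.
Setd1b intron 12, B6: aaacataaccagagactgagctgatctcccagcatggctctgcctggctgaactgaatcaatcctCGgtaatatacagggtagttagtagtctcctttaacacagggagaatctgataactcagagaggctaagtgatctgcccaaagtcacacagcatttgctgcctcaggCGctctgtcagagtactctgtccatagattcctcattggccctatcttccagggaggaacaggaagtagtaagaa
Ash2l between starts, KI: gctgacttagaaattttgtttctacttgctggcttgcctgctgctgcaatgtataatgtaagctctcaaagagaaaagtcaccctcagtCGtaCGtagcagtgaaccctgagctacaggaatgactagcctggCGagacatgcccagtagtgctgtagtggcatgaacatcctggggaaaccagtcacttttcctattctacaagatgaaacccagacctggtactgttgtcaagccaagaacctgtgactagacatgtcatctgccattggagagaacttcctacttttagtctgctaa
Kdm5b intron 9, KI: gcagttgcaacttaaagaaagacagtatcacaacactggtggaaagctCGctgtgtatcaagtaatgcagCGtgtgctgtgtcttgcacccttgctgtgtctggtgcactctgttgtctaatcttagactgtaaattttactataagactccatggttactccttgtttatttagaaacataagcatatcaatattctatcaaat

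Beside the 9 genes, 20 further genes of H3K4 methylation were examined. Of these, 18 were covered to at least 50% in both strains, again against 39.9% of all protein-coding genes. Within the length range of the 9 genes the share was 50.3%. The 20 genes are 5.9 to 227 kb long, and no share was taken over that range. The median share among the 20 was 94.9% (B6) and 93.3% (KI). The 5′ end of the gene span lay outside broad regions in both strains in 20 of 20, beside 87% of the marked genes. At Prdm9, however, the start of the main transcript, 1031 bp inside the span, lay in a broad region in both strains. The 20 genes include the MLL enzymes Kmt2a, Kmt2b, Kmt2c and Kmt2d, Prdm9, the core subunit Dpy30, partners of the MLL complexes and further demethylases. The genes under 50% were Kdm2b, which encodes a CpG-binding demethylase, with 22.7% in B6 and 23.1% in KI, and Pagr1a, which encodes a partner of the MLL3 and MLL4 complexes, with 37.1% and 29.2%. Kdm2b has 23 annotated transcripts over 144.4 kb, and the span of that with the longest coding sequence had 27.7% of its length covered in B6, and 28.1% in KI.

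The 3 largest differences between strains among these 20 were all towards B6. Setd7, which encodes a monomethyltransferase of H3K4, had a share of 80.1% in B6 but 57.1% in KI, with an uncovered 5′ part of 2800 bp in B6 and 10800 bp in KI. Kdm6a, which encodes an H3K27 demethylase of the MLL3 and MLL4 complexes and lies on the X chromosome, was covered to 93.4% and 81.4%, with uncovered 5′ parts of 2300 and 6300 bp. Kmt2c, an MLL enzyme, was covered to 97.8% and 86.7%. Of the 20, 12 had the larger share in B6, 2 in KI and 6 the same, while each of the 9 genes above differed by 3.53 points or less. The higher cover of the Sertoli cell genes in B6 stands beside these values too, and its part was not tested.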

How the data were processed

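Reads of unique position were aligned to mm9 by the authors with BWA 1.2.3, as the submitters' processing notes give it, and the 2 ChIP replicates of each strain were merged. ZINBA then called broad (unrefined) and narrow (refined) regions against the input, with windows of 1000 bp moved in steps of 500 bp. The deposited files hold chromosome, start and end of each region, with no count or score, so depth and strength are unknown and no test was made. Coordinates are 1-based, and the start and end base belong to the region.

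Overlapping or touching broad regions were merged. The share of a gene is the part of its GENCODE span (NCBIM37, the mm9 build) in merged regions. The uncovered 5′ part runs from the 5′ end to the first covered base, and a refined peak counts for a gene it overlaps by at least 1 bp. Python 3.11.15 and numpy 2.4.6 were used. Bedtools 2.31.1 gave equal shares for 9 of 9 genes in both strains, and the code was tested on simulated data. Figures were drawn with matplotlib 3.10.9.

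The 9 genes, the related genes and the markers were chosen with earlier results of these data known. All 9 are named. Of the related genes, those under 50% in either strain, any with a covered 5′ end and the 3 largest strain differences are named. The main transcript is the protein-coding one with the longest coding sequence. For each gene, overlapping genes and those within 5 kb of the 5′ end were noted. Sequences were read from the mm9 reference, and a selection is printed, with none for Cxxc1 or for windows that touch an exon. One item is not reported here. Alternatives were the joining of regions up to 1000 bp apart, regions of at least 5000 bp only, regions shortened by 500 bp at both ends, the main transcript as gene model, limits of 75% and 90%, and other rules for assigning and sharing refined peaks. H3K4me3, RNA-seq and hotspot data were not used here.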

Additional observations from a re-analysis of the deposited data

How the results depend on the processing

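With broad regions shortened by 500 bp at both ends, the median share of the 9 genes fell to 93.8% in both strains and the median uncovered 5′ part rose from 884 to 1384 bp, which follows from the shortening itself. When refined peaks within 500 bp counted as shared, 8 of the B6 peaks were shared in place of 5, and 9 of the KI peaks in place of 6. When broad regions of the other strain counted, all 15 in B6 and all 19 in KI were. Of the values for the comparisons, 39 stayed within 1 step of 500 bp, 1.77 percentage points of share or 1.5 times the main count. A further 5 moved by more. The median uncovered 5′ part of 1384 bp and the 9 shared KI peaks are among the 39. The genes covered to at least 50% in both strains numbered 9, or 8 with regions of at least 5000 bp only, where Setd1b lost its shorter pieces and fell from 63.4% to 31.7% in both strains. Limits of 75% and 90% gave 8 and 7 of the 9 genes and 16 and 12 of the 20 related genes. The 5′ end lay outside broad regions in 9 of 9 genes, or in 8 when regions up to 1000 bp apart were joined, which closed the 1000 bp at the start of Setd1a. With the main transcript as gene model, a choice added for the related genes after the data were seen, 9 and 18 genes passed 50%. Depth, strength and variation between animals are not in the lists. No paired analysis was possible because each strain has 1 pooled list.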

Other observations

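The enzymes that write and erase H3K36 methylation give a list of like function. All 10 of these genes (Setd2, Nsd1, Whsc1, Whsc1l1, Ash1l, Kdm2a, Kdm4a, Kdm4b, Kdm4c and Kdm4d) were covered to at least 50% in both strains, beside 39.9% of all protein-coding genes. Among protein-coding genes within the length range of the 9 H3K4 genes the share was 50.3%. The 10 genes are 37.9 to 163.4 kb long, and no share was taken over that range. Their medians were 97.6% in B6 and 97.0% in KI. The 5′ end lay outside broad regions in both strains in 8 of 10, beside 87% of the marked genes. These 10 genes held 23 refined peaks in B6, 25.4 per Mb, and 45 in KI, 49.6 per Mb. The 9 genes of H3K4 methylation had 44.0 and 55.8 per Mb. Here too the densities were not set against the number of called broad regions. No test was made between the lists.

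Among the related genes, Dpy30 had one of the longer uncovered stretches and Prdm9 a short one. Dpy30, whose product is a core subunit with ASH2L, WDR5 and RBBP5, was uncovered over the first 8284 bp in B6 and 8784 bp in KI, into intron 3, and its share was 66.1% in B6 and 64.1% in KI. Prdm9 itself was uncovered over 318 bp in B6 and 818 bp in KI at the 5′ end of its span, while the start of its main transcript, 1031 bp inside, lay in a broad region in both strains. These genes were named after their values were seen.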
